A study of Mus musculus with 2 samples.

Results

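Interferon-responsive microglia are resident macrophages of the brain that carry transcripts of genes switched on by interferons. They were chosen here from unique molecular identifiers (UMIs, each standing for 1 captured transcript). A member had at least 15 UMIs per 10000 of the microglia genes P2ry12, Tmem119, Sparc, Gpr34, Olfml3 and Siglech and at least 5 UMIs of the interferon-induced genes Ifit1, Ifit3, Rsad2, Usp18 and Oasl1. Cells with 5 or more UMIs of Tnf and Il1a, any UMI of Ch25h or Cd5l, or 20 or more UMIs per 10000 of S100a8 and S100a9 were left out. The rule found 188 of 22960 cells, 88 of 15050 in replicate 1 and 100 of 7910 in replicate 2.

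The libraries were made from the ischemic brains of Foxp3Egfp mice aged 6 to 8 weeks, in which a green fluorescent protein reports the regulatory T cell factor Foxp3. Leukocytes with a CD45+CD11b+CD3-F4/80+ surface were sorted after a flush with PBS, and the labels call the sorted cells macrophages. There is 1 group of 2 replicate libraries, so each comparison is between kinds of cells within the libraries, and all cells share the reporter and the stroke. The labels state that cDNA of stroke mice was combined for sequencing and do not state whether each replicate stands for its own animals, so the spread behind the p-values may be technical.

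Type I interferons bind a receptor of the subunits IFNAR1 and IFNAR2, whose kinases JAK1 and TYK2 phosphorylate STAT proteins. With IRF9 these form a complex that binds interferon-stimulated response elements in promoters and switches on antiviral effectors, sensors of foreign nucleic acid, chemokines and more of the pathway's own factors. Microglia in which such genes are on form a known state of this cell type in aged, infected and injured brain.

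The promoters of the genes that chose the cells, and of 3 genes outside the rule that were higher in the chosen cells, are printed because they show the sequence element of this response. Each line gives the 250 bases before the annotated start, 5′ to 3′ on the gene's strand, from RefSeq (GRCm38.p6). Capitals mark GAAA, any 2 bases and GAAA again, the core of the response element, on either strand, where overlapping matches run together.
Ifit1 (chr19:34640639-34640888, plus strand): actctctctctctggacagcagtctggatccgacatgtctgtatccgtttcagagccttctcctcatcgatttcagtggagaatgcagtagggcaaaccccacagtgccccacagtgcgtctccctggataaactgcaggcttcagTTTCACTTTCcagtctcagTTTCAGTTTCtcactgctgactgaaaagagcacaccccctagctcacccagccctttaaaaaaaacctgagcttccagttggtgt
Ifit3 (chr19:34583279-34583528, plus strand): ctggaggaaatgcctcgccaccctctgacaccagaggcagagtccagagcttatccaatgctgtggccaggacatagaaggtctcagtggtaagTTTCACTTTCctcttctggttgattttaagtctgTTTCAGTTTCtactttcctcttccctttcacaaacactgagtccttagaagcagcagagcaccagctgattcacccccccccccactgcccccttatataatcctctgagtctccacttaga
Rsad2 (chr12:26456453-26456702, minus strand): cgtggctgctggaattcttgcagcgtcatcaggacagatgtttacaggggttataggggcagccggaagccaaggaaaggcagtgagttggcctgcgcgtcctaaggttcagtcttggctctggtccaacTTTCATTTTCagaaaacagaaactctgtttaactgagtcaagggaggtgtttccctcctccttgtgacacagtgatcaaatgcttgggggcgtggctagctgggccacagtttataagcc
Oasl1 (chr5:114922990-114923239, plus strand): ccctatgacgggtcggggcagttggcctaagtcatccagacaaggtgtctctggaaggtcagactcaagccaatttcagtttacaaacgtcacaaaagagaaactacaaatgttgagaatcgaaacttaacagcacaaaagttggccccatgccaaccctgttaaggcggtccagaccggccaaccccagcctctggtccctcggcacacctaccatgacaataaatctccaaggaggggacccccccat
Isg15 (chr4:156200819-156201068, minus strand): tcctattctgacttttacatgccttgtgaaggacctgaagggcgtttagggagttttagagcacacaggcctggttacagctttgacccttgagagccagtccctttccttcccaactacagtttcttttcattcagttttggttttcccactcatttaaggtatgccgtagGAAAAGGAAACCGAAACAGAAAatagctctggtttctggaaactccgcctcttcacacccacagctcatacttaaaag
Cxcl10 (chr5:92348890-92349139, minus strand): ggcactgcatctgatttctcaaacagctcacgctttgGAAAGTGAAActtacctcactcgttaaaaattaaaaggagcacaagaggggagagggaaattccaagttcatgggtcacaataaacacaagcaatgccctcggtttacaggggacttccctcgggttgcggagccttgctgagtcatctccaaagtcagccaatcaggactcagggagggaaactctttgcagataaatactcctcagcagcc
Stat2 (chr10:128270248-128270497, plus strand): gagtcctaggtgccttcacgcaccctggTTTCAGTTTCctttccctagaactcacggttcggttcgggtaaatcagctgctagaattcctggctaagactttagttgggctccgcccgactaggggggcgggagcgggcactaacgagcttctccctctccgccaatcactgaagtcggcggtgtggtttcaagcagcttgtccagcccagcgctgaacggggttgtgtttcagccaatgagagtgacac
Usp18 is named only. The first base of the element lies 104 and 85 bases before the start of Ifit1, 156 and 122 bases before that of Ifit3, and 120 bases before that of Rsad2. It lies 213 bases before the start of Cxcl10 and 222 bases before that of Stat2, and 3 overlapping matches begin 78, 72 and 66 bases before that of Isg15. The window of Oasl1 holds none of these letters. Over windows from 250 bases before to 50 after the start, 3 of the 4 genes of the rule that had a window held the element, against 1079 of 27025 genes in all (3.99%). A match is a description of the letters and not a measured binding site.

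The deposited matrices held 101893367 UMIs in replicate 1 and 62850768 in replicate 2. Depth and neighbouring cell types differed between the groups compared below. Member cells were deeper than the 9156 microglia-gated cells with fewer than 5 UMIs of the interferon genes and otherwise the same rule, called low-ISG microglia here. The median was 6132 UMIs in replicate 1 and 9088 in replicate 2 for members, against 3193 and 4522 for low-ISG microglia. Scrublet marked 15.9% of members as doublets in replicate 1, against 9.61% of low-ISG microglia. In replicate 2 it called 0 cells, and the 501 top-scoring cells were taken as doublets instead. Among these were 12% of members and 3.91% of low-ISG microglia. The libraries shared 31 cell barcodes, of which 1 belonged to a member in replicate 1 and 0 in replicate 2.

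The microglia label was checked against 9 microglia genes outside the rule, among them Cx3cr1, Fcrls, P2ry13, Csf1r and Sall1. All 9 were detected in members, and their summed level was 6589 and 10800 CPM (UMIs scaled to an equal total for each sum of cells) in replicates 1 and 2, against 9912 and 15040 CPM in low-ISG microglia. The fractalkine receptor gene Cx3cr1 had a UMI in 81.8% and 97.0% of members, against 93.3% and 95.3% of low-ISG microglia. Csf1r, the receptor gene for a growth factor that microglia need, had one in 84.1% and 95%, against 93.4% and 96.9%. In replicate 1 both genes were thus found in a smaller share of members, although members were deeper. The 9 markers of infiltrating macrophages summed to 7357 and 4362 CPM in members, against 4888 and 1956 CPM in low-ISG microglia, and none was at 0. The 6 monocyte markers, none at 0, summed to 274 and 947.5 CPM, against 127 and 127.5 CPM. Members with 40 or more UMIs per 10000 of Lyz2, Lgals3, Fn1, Ccr2, Ms4a7 and F13a1 numbered 26 (29.5%) and 23 (23%), against 15% and 4.19% of low-ISG microglia.

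Transcripts of other cell types were also summed, in CPM for replicates 1 and 2. The 8 border-associated macrophage markers summed to 787 and 213 in members, against 531 and 213 in low-ISG microglia, with Cd163 and Lyve1 at 0 in members of both libraries, and the 10 neutrophil markers to 279 and 212, against 189 and 165, with Retnlg, Camp, Ngp and Ltf at 0. The 7 NK cell markers summed to 50.2 and 10.3 in members, against 8.95 and 7.48, and the 8 T cell markers to 6.48 and 58.6, against 17.7 and 17.0 in low-ISG microglia. The 6 endothelial markers summed to 113 and 110 in members, against 68.2 and 69.9 in low-ISG microglia, and the 6 astrocyte markers to 316 and 107, against 143 and 147. The 7 conventional dendritic cell markers summed to 0 and 48.4 in members, against 14.0 and 17.1 in low-ISG microglia. The T cell, dendritic cell and astrocyte sums stood higher in members of 1 library and lower in the other, and the NK cell, endothelial and neutrophil sums stood higher in both. Sums were lower in members of both libraries for the 6 B cell, 6 neuron and 9 plasmacytoid dendritic cell markers, with Cd79a, Ms4a1 and Pax5 and the neuron markers Snap25, Syt1, Rbfox3, Tubb3 and Nefl at 0. The 6 oligodendrocyte markers summed to 55.1 and 85.4 in members, against 56.6 and 72.7 in low-ISG microglia. The part of the transcripts of these other types in the differences described below was not tested.

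Some members went against the label. In 15 members of replicate 1 and 3 of replicate 2 at least 5 UMIs came from Col1a1, Col1a2, Col3a1, Dcn, Lum, Ogn, Pdgfra and Fbln5, genes of the extracellular matrix and of cells that make it. They entered the microglia gate largely through Sparc, itself the gene of a matrix glycoprotein, at 2647 and 3570 CPM. Cx3cr1 stood at 224 and 34.7 CPM in these matrix-rich barcodes, against 1601 and 1689 CPM in the other members, and P2ry12 at 24.9 and 17.3 CPM, against 477 and 815 CPM. They are kept under the rule, called matrix-rich, and counts of called genes over all tested genes, and list counts where they changed, are given with and without them, a choice made after seeing the data. The share of members, with all filters of the rule applied, was higher among matrix-rich cells of the microglia gate in replicate 1. It was 15 of 248 there (6.05%, exact 95% interval 3.42 to 9.78), against 0.969% of the others. In replicate 2 it was 3 of 110 (2.73%, 0.566 to 7.76), against 1.72%. Matrix-rich cells of the gate were deeper, with medians of 7464 and 18830 UMIs, against 4258 and 5456 UMIs for the others. A deeper cell reaches 5 UMIs more easily, and the part of depth in these shares was not tested. The matrix-rich members also differed in which interferon genes they held. Rsad2, which encodes the antiviral enzyme viperin, had 0 CPM in the matrix-rich members of both libraries, against 519 and 307 CPM in the other members. Ifit1 had 855 and 121 CPM in them, against 268 and 211 CPM.

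**Figure D1:**
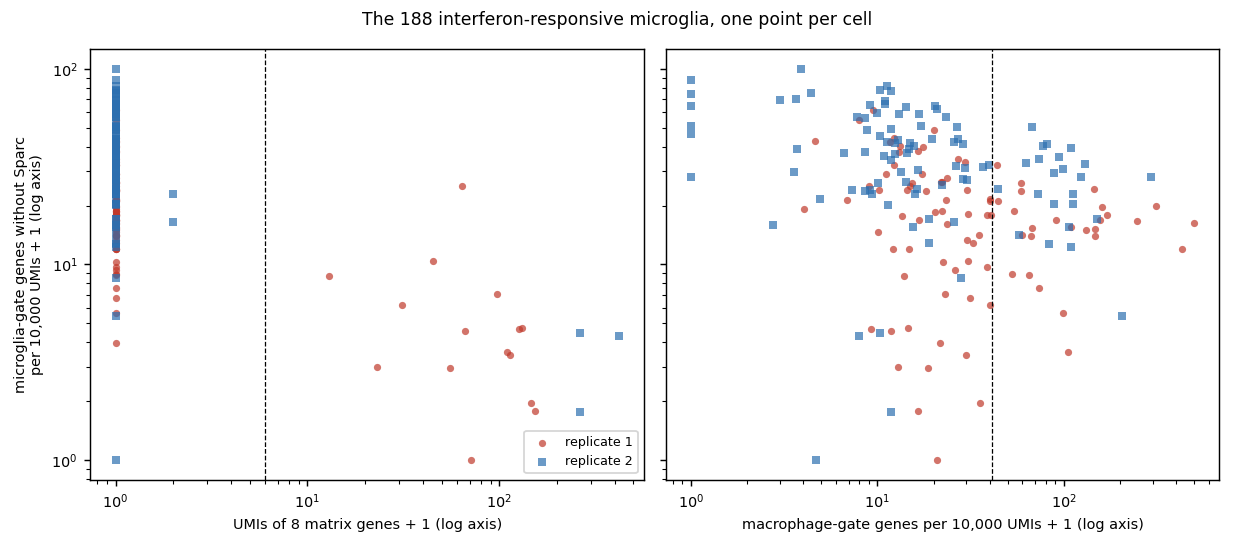
Each point is a member cell, with microglia-gate genes other than Sparc per 10000 UMIs on the vertical axis against matrix UMIs (left) or macrophage-gate genes per 10000 UMIs (right) on log axes after adding 1, and dashed lines at 5 UMIs and at 40 per 10000. The matrix-rich members (15 and 3 cells) lie right of the line in the left panel, mostly low on the vertical axis, and 26 and 23 members lie right of the line in the right panel.

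Members made up 88 of 7782 microglia-gated cells with few S100 transcripts in replicate 1 (1.13%, exact 95% interval 0.908 to 1.39) and 100 of 5740 in replicate 2 (1.74%, 1.42 to 2.12). These intervals, like the others here, cover counting error only. The share depends on depth, since a deeper cell reaches 5 UMIs more easily. With each cell thinned to 2000 UMIs it was 31 of 6097 (0.508%) and 24 of 5544 (0.433%), leaving out 1685 and 196 shallower cells, so the order of the libraries seen without thinning did not hold at equal depth. Cells that passed the same filters and had 5 or more UMIs of the interferon genes were a larger share of the macrophage-gated cells, which had under 5 UMIs per 10000 of the microglia genes and at least 15 of the macrophage genes, few S100 transcripts and no UMI of the T and NK cell genes. There they were 132 of 4694 in replicate 1 (2.81%) and 148 of 978 in replicate 2 (15.1%), or 1.22% and 8.23% after thinning, above the thinned microglia share in both libraries. On the interferon genes alone, without the filters on Tnf, Il1a, Ch25h and Cd5l, the share of macrophage-gated cells was 157 of 4694 (3.35%, exact 95% interval 2.85 to 3.90) and 163 of 978 (16.7%, 14.4 to 19.1), and that of microglia-gated cells 199 of 7782 (2.56%, 2.22 to 2.93) and 188 of 5740 (3.28%, 2.83 to 3.77).

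The other filters of the rule removed many cells with interferon genes. Of 199 and 188 microglia-gated cells with 5 or more UMIs of the interferon genes and few S100 transcripts, 91 and 59 also had 5 or more UMIs of Tnf and Il1a, and 51 and 47 had Ch25h or Cd5l, of which 31 and 18 had both. The threshold of 5 UMIs cut a continuous distribution. Just inside it stood 23 and 18 cells with 5 UMIs, and just outside it 26 and 31 cells with 4 UMIs. At the other threshold, 15 and 4 members had 15 to 20 UMIs per 10000 of the microglia genes, and 12 and 11 cells with 10 to 15 fell outside.

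The 5 interferon genes were not all present in each member. Ifit3, whose product binds viral RNA with other IFIT proteins, had a UMI in 88.6% of members in replicate 1 and 92.0% in replicate 2. Ifit1, which binds the caps of viral RNA, had one in 69.3% and 62.0%, Rsad2 in 67.0% and 61.0%, the ISG15 protease gene Usp18 in 44.3% and 57.0%, and Oasl1, an inhibitor of Irf7 translation in mice, in 22.7% and 41%. All 5 genes were seen together in 5 members (5.68%) of replicate 1 and 12 (12%) of replicate 2, while 2 and 4 members passed on 1 gene alone. The summed UMIs had a median of 7.5 and 8 per member and ran from 5 to 52 and from 5 to 100. A member is therefore most often a cell with a few transcripts of 2 to 4 of these genes, and a small number of cells held far more.

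The question for the rest of the transcriptome was which genes outside the gates differed between members and low-ISG microglia of the same libraries. Counts were summed per library and gate, and 11998 genes, without the 26 genes used in any gate, were tested with edgeR. Members had 68 genes higher (0.567% of those tested) and 4 lower (0.0333%) at a Benjamini-Hochberg adjusted p under 0.05. Without the matrix-rich barcodes the counts were 71 (0.618%) and 5 (0.0435%), with 60 of the 68 and 3 of the 4 called again. The genes lost were Ifi44, Ogn, Cryab, Ndrg1, Ifi203, Ly6a, Irgm2 and Pnpt1 of the higher ones and Thap1 of the lower ones. Without macrophage-gene-rich cells as well, 60 (0.542%) were higher and 2 (0.0181%) lower, and of the genes named below Ifi205, Gbp2, Trim25, Tnfsf10 and Thrsp were then not called. Among cells of 3000 to 10000 UMIs, which brings the depths closer, 21 genes (0.193%) were higher and 0 (0%) lower, and 20 of the 21 were among the 68. The median log2 difference over all tested genes was -0.04, and 45.4% were positive. As the cells were picked by 5 genes of 1 response, other genes of that response counted in the same cells are not separate evidence that the response was on.

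Antiviral effectors made up the largest group. Of 62 measured members of this list 28 rose and 0 fell, with a median log2 difference of 1.61 and 59 positive. Without matrix-rich barcodes 30 rose. Ifit2, a partner of Ifit1 and Ifit3, stood at 199 and 269.5 CPM in interferon-responsive microglia of replicates 1 and 2, against 13.3 and 12.2 CPM in low-ISG microglia. The fold was 18.3 (log2 4.19 ± 0.33 SE, edgeR adjusted p = 0.00109). Mx1, a GTPase that blocks viral nucleocapsids, had 126 and 173 CPM, against 9.09 and 7.64 CPM, which was the same size of difference (log2 4.13 ± 0.47, edgeR adjusted p = 0.0064). Ifit3b, a near-identical neighbour of the rule gene Ifit3 that may share its reads, had 109 and 142 CPM, against 4.22 and 3.49 CPM (log2 5.01 ± 0.34, edgeR adjusted p = 0.000539). Ifit1bl1, another gene of that cluster on chromosome 19, had the largest fold of the called genes, on 7 and 31 UMIs in members (11.3 and 31.9 CPM), against 0.284 and 0.168 CPM (log2 6.46 ± 0.72, edgeR adjusted p = 0.0064). Cmpk2, a mitochondrial nucleotide kinase gene, had 45.4 and 29.8 CPM, against 2.98 and 1.34 CPM (log2 4.12). Both libraries were high in members for each of these genes.

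Some of the best known effectors missed the threshold although they were high in both libraries. Bst2, the gene of tetherin, which holds budding virus at the membrane, had 1016 and 1285 CPM in members, against 541 and 445 CPM (log2 1.24 ± 0.23, edgeR adjusted p = 0.0578). Ifitm3, which blocks viral entry, had 2131 and 2066 CPM, against 613 and 535 CPM (log2 1.84 ± 0.53, edgeR adjusted p = 0.308). Both were common outside the members too. Bst2 had a UMI in 96.6% and 98.0% of members, against 65.0% and 70.8% of low-ISG microglia, and Ifitm3 in 95.5% and 94.0%, against 46.8% and 40.2%.

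**Figure D2:**
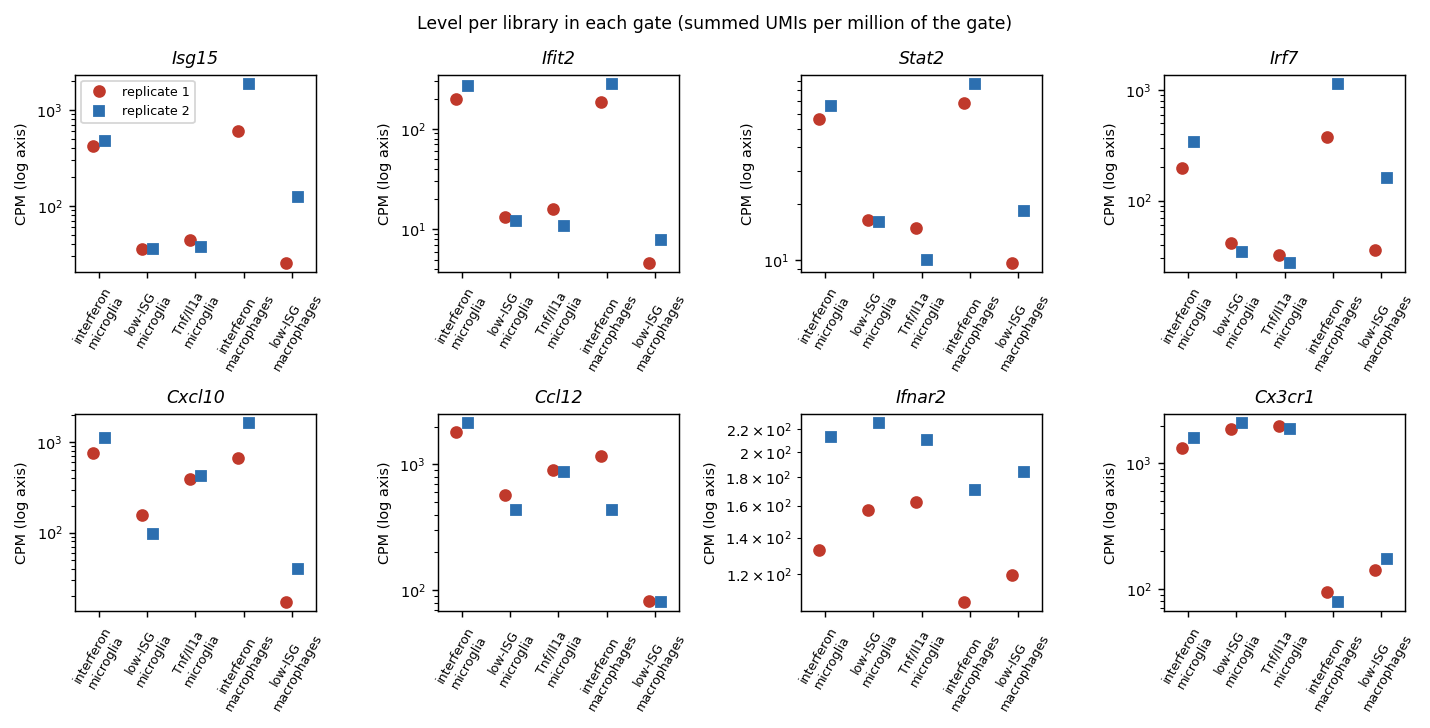
Levels of 8 genes in CPM (log axis) in each gate, 1 point for each library. Isg15, Ifit2, Stat2 and Irf7 stand higher in both interferon gates than in the other gates, Cxcl10 and Ccl12 also differ among the gates without interferon genes, and Ifnar2 and the microglia gene Cx3cr1 are not raised in interferon-responsive microglia.

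ISG15 is a ubiquitin-like protein that the pathway attaches to other proteins, and 4 of 5 genes of ISG15 conjugation rose (median log2 1.83), and 3 without matrix-rich and macrophage-gene-rich cells. Isg15 stood at 416 and 480 CPM in interferon-responsive microglia, against 35.4 and 35.3 CPM in low-ISG microglia, 12.3-fold (log2 3.62 ± 0.60, edgeR adjusted p = 0.0319). It had a UMI in 79.5% and 83.0% of members, against 10.2% and 12.1% of low-ISG microglia. The ligase gene Herc6 had 87.5 and 114 CPM, against 18.5 and 19.7 CPM (log2 2.39 ± 0.29, edgeR adjusted p = 0.00756). The conjugating enzyme gene Ube2l6 (log2 1.83) and the ligase gene Trim25 (log2 1.33) were the other 2, so the modifier rose with enzymes that attach it.

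Nucleic acid sensors rose in 9 of 25 genes (median log2 1.79), of which 7 belong to the Ifi200 family on chromosome 1, whose proteins bind DNA. Without matrix-rich barcodes 9 nucleic acid sensors were again called, though not Ifi203, and without macrophage-gene-rich cells as well 6. Ifi205 had 40.5 and 45.3 CPM in members, against 1.33 and 0.504 CPM (log2 5.45 ± 0.83, edgeR adjusted p = 0.0255). Ifi209 had 77.8 and 136 CPM, against 11.9 and 12.6 CPM (log2 3.06), and Mndal 58.3 and 80.2 CPM, against 9.99 and 5.17 CPM (log2 3.19). Genes of this family are alike in sequence, and the sources used here do not give how shared reads were counted. The other 2 were the RNA sensors, Ddx58, which encodes RIG-I (log2 2.02), and Ifih1, which encodes MDA5 (log2 2.01). The endosomal receptors Tlr3 (log2 0.84), Tlr7 (-0.11) and Tlr9 (0.31) and the adaptors Mavs (-0.38) and Tmem173, the gene of STING (-0.41), were not called, so the calls fell on sensors and not on the adaptors measured here.

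Interferon-inducible GTPases rose in 7 of 16 genes (median log2 2.0, all 16 positive). In this list of interferon-inducible GTPases 6 of 15 tested rose without matrix-rich barcodes, and 4 of 14 without macrophage-gene-rich cells as well. Iigp1, an immunity-related GTPase of the vacuoles that hold parasites, had 47.0 and 42.2 CPM in members, against 3.41 and 1.47 CPM (log2 4.35 ± 0.39, edgeR adjusted p = 0.00253). Ifi47 had 55.1 and 68.9 CPM, against 3.74 and 2.48 CPM (log2 4.28), and the guanylate-binding protein gene Gbp2 had 50.2 and 47.3 CPM, against 9.0 and 6.30 CPM (log2 2.69). Irgm1 had 107 and 108 CPM, against 26.8 and 27.6 CPM (log2 1.97 ± 0.28, edgeR adjusted p = 0.0199). The libraries lay close together in members for each of these 4 genes. Many of these GTPases are also targets of interferon gamma, and the counts do not separate the 2 interferon types.

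**Figure D3:**
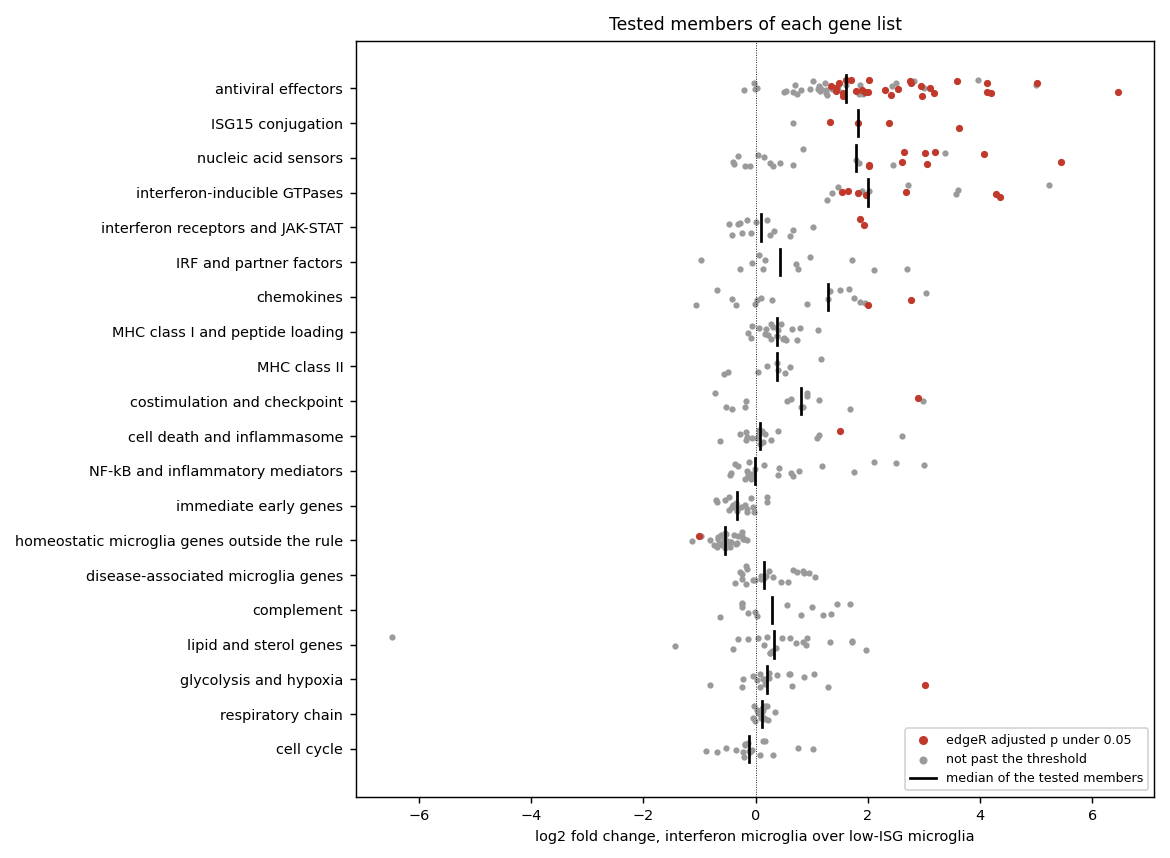
Log2 difference between interferon-responsive and low-ISG microglia for each tested gene of 20 lists, with red points for genes called by edgeR and a bar at each list's median. Called genes gather in the antiviral, ISG15, sensor and GTPase lists, and the lone point near -6.5 is Lss, which had 0 UMIs in members and was not called.

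Signal carriers of the pathway moved in part. In the list of interferon receptors and JAK-STAT genes 2 of 16 rose, Stat2 among them, with a list median of 0.10. Stat2 had 56.7 and 65.8 CPM in members, against 16.5 and 15.9 CPM in low-ISG microglia (log2 1.93 ± 0.33, edgeR adjusted p = 0.0345). The receptor genes stood at like levels in both kinds of cells. Ifnar1 had 43.8 and 45.3 CPM in members, against 45.7 and 43.0 CPM, and Ifnar2 133 and 213 CPM, against 157 and 226 CPM, and neither was called (log2 0.00 ± 0.26 and -0.15 ± 0.18).

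Of 12 IRF and partner factors 0 passed the edgeR test (median log2 0.44). Irf7, the factor that amplifies type I interferon production, had 198 and 340 CPM in members, against 41.3 and 34.2 CPM (log2 2.70 ± 0.59, edgeR adjusted p = 0.112). A UMI of Irf7 was found in 63.6% and 82.0% of members, against 11.4% and 12% of low-ISG microglia. The library gap in members goes with a large standard error. Irf9, the DNA-binding partner of the STATs, had 50.2 and 67.9 CPM, against 32.2 and 37.7 CPM (log2 0.75 ± 0.22, edgeR adjusted p = 0.332).

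Interferon transcripts themselves were rare in members. Ifnb1, the gene of interferon beta, had 1 UMI in 1 of 88 members and 9 UMIs in 3 of 100 members (1.14% and 3%), against 1.02% and 0.396% of low-ISG microglia. It was found in 6.61% and 3.10% of the Tnf/Il1a microglia, cells of the microglia gate with 5 or more UMIs of Tnf and Il1a, fewer than 5 of the interferon genes and no Ch25h or Cd5l, at a median of 6334.5 and 8376.5 UMIs. Ifna4 was found in 0 of 88 and 0 of 100 members, which, taking 3 counts as the limit of a count of 0, allows a share of up to 3.41% and 3% of cells with a UMI. Ifng was found in 0 and 1 members, against 19.5% and 33.3% of the T and NK-gated cells.

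Among chemokines 2 of 19 rose and 0 fell (median log2 1.29). Cxcl10, which draws cells with the receptor CXCR3, had 760 and 1108 CPM in interferon-responsive microglia, against 158 and 96.6 CPM in low-ISG microglia, 6.86-fold (log2 2.78 ± 0.48, edgeR adjusted p = 0.0365). It was also high in the Tnf/Il1a microglia, at 396 and 421 CPM. Ccl12, a mouse ligand of CCR2, had 1798 and 2144 CPM, against 574 and 437 CPM (log2 2.0 ± 0.29, edgeR adjusted p = 0.022). Ccl5 had 181.5 and 501 CPM, against 111 and 66.4 CPM, and was not called (log2 1.87 ± 0.70, edgeR adjusted p = 0.447).

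The chemokine transcripts were spread unevenly over members. A Cxcl10 UMI was found in 48.9% and 50% of them, against 21.0% and 12.9% of low-ISG microglia. In Tnf/Il1a microglia, whose depth was nearer to that of members, it was found in 57.95% and 44.9%. Ccl12 was found in 67.05% and 81% of members and in 77.8% and 79.4% of Tnf/Il1a microglia, so detection of these chemokines was not particular to members. The 5 richest members held 40.3% and 59.6% of all Cxcl10 UMIs of members. For Ccl5 the 5 richest cells held 79.5% and 83.8%, with 46 and 267 UMIs in 1 cell, so the sum of this gene rests on few cells. Ccl12 was found in 33 of the 43 members with Cxcl10 in replicate 1 (76.7%) and in 48 of 50 in replicate 2 (96%), against 26 of 45 (57.8%) and 33 of 50 (66%) of the members without Cxcl10. Without matrix-rich barcodes the shares were closer, at 32 of 39 (82.1%) and 48 of 50 (96%), against 25 of 34 (73.5%) and 33 of 47 (70.2%). Members with Cxcl10 had medians of 6503 and 9594 UMIs, against 5767 and 7930 UMIs, and the part of this depth gap in the shares was not tested.

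Levels of Isg15 and Cxcl10 varied with the number of UMIs of the rule's genes, though not in even steps. In microglia-gated cells with 0, 3, 4, 5, 6 to 9, 10 to 19 and 20 or more such UMIs, Isg15 stood at 21.8, 107, 224, 329, 308, 640 and 563 CPM in replicate 1 and at 19.8, 210, 177, 218, 305, 613 and 963 CPM in replicate 2. Cells with 4 UMIs, just outside the rule, thus already held more Isg15 than cells with none. Over the same classes Cxcl10 stood at 142, 223, 300, 754, 377, 880 and 1953 CPM in replicate 1 and at 82.6, 428, 38.5, 613, 578, 661 and 3663 CPM in replicate 2. The highest class, of 9 and 14 cells, held the most Cxcl10 in both libraries. It also held the most of the macrophage gene Lyz2, at 11603 and 6629 CPM, against 3901 and 1404 CPM in cells with none, and the part of this in the result was not tested.

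**Figure D4:**
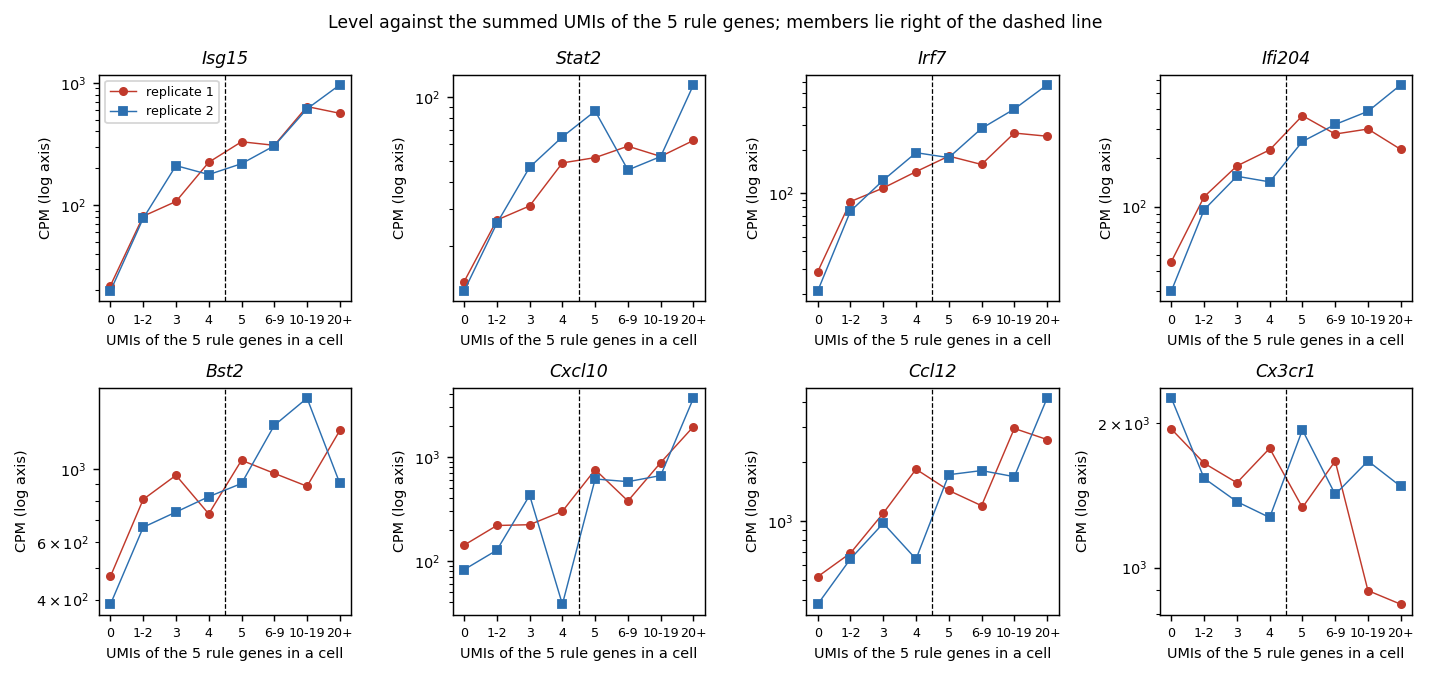
Levels of 8 genes in CPM (log axis) against the UMIs of the 5 rule genes per cell, with 1 line for each library and a dashed line where the rule begins at 5 UMIs. Isg15 stands at 21.8 and 19.8 CPM in cells with none of these UMIs and at 563 and 963 CPM in the highest class, whereas Cx3cr1 is not higher there.

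Antigen presentation, which interferons also raise in many cells, showed no called gene in members. Of 21 genes of MHC class I and peptide loading 0 passed the edgeR test, with a median log2 difference of 0.37 and 18 positive. B2m, the light chain of class I, had 2006 and 2564 CPM in members, against 1854 and 1897 CPM (log2 0.27 ± 0.18, edgeR adjusted p = 0.697), and the peptide transporter gene Tap1 58.3 and 80.2 CPM, against 31.3 and 32.3 CPM (log2 1.11, edgeR adjusted p = 0.146). Of 9 MHC class II genes 0 were called (median log2 0.38). Cd74, the invariant chain gene, was uneven between libraries, at 117 and 1523 CPM in members, against 288 and 312 CPM, so its direction differed between them.

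Costimulation and checkpoint genes had 1 of 15 called, Tnfsf10, the gene of the death ligand TRAIL, at 30.8 and 15.4 CPM in members, against 3.27 and 2.69 CPM (log2 2.90 ± 0.46, edgeR adjusted p = 0.0277). Cell death and inflammasome genes had 1 of 19 called, the nuclear body gene Pml, at 22.7 and 24.7 CPM, against 8.00 and 8.86 CPM (log2 1.51). NF-kB and inflammatory mediators had 0 of 23 called (median log2 -0.02), and Il1b had 264 and 685 CPM, against 235 and 224 CPM (log2 0.78, edgeR adjusted p = 0.787). Members had fewer than 5 UMIs of Tnf and Il1a by the rule, which bears on this list.

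Genes of resting microglia stood lower in members than in low-ISG microglia, which was not particular to members. Ch25h/Cd5l microglia had Ch25h or Cd5l and under 5 UMIs both of Tnf and Il1a and of the interferon genes. In them the 9 microglia genes checked above summed to 8186 and 11090 CPM, against 9912 and 15040 CPM in low-ISG microglia. The sums of members were 6589 and 10800 CPM. Against low-ISG microglia 1 of 32 homeostatic microglia genes outside the rule fell in members, 0 rose, and 0 had a positive difference (median log2 -0.55, beside -0.04 over all tested genes). The gene that fell was Sall1, the transcription factor that maintains microglia identity, at 59.95 and 74.07 CPM in members, against 128.5 and 144 CPM (log2 -1.0 ± 0.17, edgeR adjusted p = 0.0381). Cx3cr1 had 1332 and 1590 CPM, against 1884 and 2110 CPM (log2 -0.44 ± 0.15, edgeR adjusted p = 0.40). The macrophage and matrix transcripts described above moved with this list. Without the matrix-rich barcodes its median was -0.48, and without those and the cells rich in macrophage genes it was -0.31 with 2 positive. How much of the list's difference those cells make up beyond this was not tested. Sall1 stayed at log2 -0.93 and -0.99 in these settings and was called in both. Sall1 was also called with DESeq2, no filter on low counts, the stricter low-ISG gate and the fit of the compared gates alone. It stayed negative but was not called among the cells of closer depth (log2 -0.96, edgeR adjusted p = 0.285). Nor was it called with the stricter interferon gate (log2 -1.045, edgeR adjusted p = 0.282). The same held without doublets, with no replicate block and with DESeq2 size factors.

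Of 24 disease-associated microglia genes 0 passed the edgeR test (median log2 0.14). The receptor gene Axl, which takes part in clearing dying cells and is itself interferon-inducible, had 66.4 and 66.9 CPM in members, against 44.3 and 23.2 CPM (log2 1.06 ± 0.25, edgeR adjusted p = 0.158). It passed once the matrix-rich and macrophage-gene-rich cells were left out of all microglia gates (log2 1.64, edgeR adjusted p = 0.0162). Trem2 (log2 -0.25), Apoe (log2 0.30) and Spp1 (log2 0.57) were not called. In the lists of complement (14 genes) and of lipid and sterol genes (22 genes) 0 were called.

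Few genes fell. Thrsp, a lipid synthesis gene, had 21.1 and 37.0 CPM in members, against 47.5 and 76.1 CPM (log2 -1.05 ± 0.18, edgeR adjusted p = 0.0365), and the uncharacterised Gm13889 13 and 26.8 CPM, against 43.5 and 84.4 CPM (log2 -1.64 ± 0.23, edgeR adjusted p = 0.0199). Thap1, named after its values were seen, averaged 2.13 CPM, against 12.2 CPM (log2 -2.66). For each of these genes both libraries of members were below low-ISG microglia. Among the called genes Ogn, a matrix proteoglycan gene, had 216 and 72.0 CPM, against 18.6 and 8.36 CPM (log2 3.34), and all of its UMIs in members came from matrix-rich barcodes. As Ogn is among the genes that define those barcodes, this and the loss of its call without them follow largely from the definition. Ndrg1, the 1 called gene of 20 in the list of glycolysis and hypoxia, had 63.2 and 23.7 CPM, against 8.10 and 2.69 CPM (log2 3.03), and was not called without them (log2 1.51, edgeR adjusted p = 0.818).

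The response element of the printed promoters was also counted in the called genes. Of the 54 higher genes with a window 28 held the element (51.9%), against 4.08% of the tested genes with one, and without matrix-rich barcodes 28 of 58 did (48.3%). The gamma-activated site TTCNNNGAA was in 7 of 54 (13%), against 8.12% of the tested genes with a window. Both motifs were searched on both strands, and a match of one can overlap a match of the other. Of the 4 lower genes 2 had a window, and 0 held the response element.

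Members were also compared with Tnf/Il1a microglia, another activated state within the microglia gate. Members had 436 genes higher (3.63% of those tested) and 60 lower (0.5%). Without the matrix-rich barcodes, which made up 17.0% and 3% of members but 0.563% and 0.0940% of Tnf/Il1a microglia, these counts dropped to 65 (0.566%) and 6 (0.0522%). Without the macrophage-gene-rich cells as well they were 56 (0.506%) and 0 (0%). Of the 6 genes with the largest called folds, Gpc6, Tm4sf1, Ogn, Cavin3 and Phldb2 were not called without matrix-rich barcodes or were no longer tested, and Ifit1bl1 was called in both (log2 6.20 and 6.41).

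The antiviral group again stood out in this second comparison, which shares the member cells with the first. Antiviral effectors rose in 38 of 62 genes, and in 29 without matrix-rich barcodes (median log2 1.67 and 1.74). Bst2 passed here (log2 1.08, edgeR adjusted p = 0.034), as did Irf7 (log2 2.91), which no longer passed without matrix-rich barcodes. On the other side 4 of 23 NF-kB and inflammatory mediators fell. Tnfaip3, the feedback inhibitor A20, had 147 and 109 CPM in interferon-responsive microglia, against 450 and 369 CPM in Tnf/Il1a microglia (log2 -1.83 ± 0.34, edgeR adjusted p = 0.0166). Cd83 had 253 and 282 CPM, against 703 and 947 CPM (log2 -1.77 ± 0.26, edgeR adjusted p = 0.00794). The chemokine genes Ccl3 (log2 -1.34) and Ccl4 (log2 -1.11) also fell, and no chemokine of the list was lower without matrix-rich barcodes. Without matrix-rich barcodes 2 genes of the NF-kB and inflammatory mediators list stayed called, Cd83 among them (log2 -1.54), and Tnfaip3 missed the threshold (log2 -1.60, edgeR adjusted p = 0.0568). The Tnf/Il1a cells were chosen by 2 genes of the same inflammatory program, so their high levels of its other genes are no separate evidence.

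Interferon macrophages, the macrophage-gated cells with 5 or more UMIs of the same genes and the same filters on Tnf, Il1a, Ch25h and Cd5l, numbered 132 and 148, and were set against the low-ISG macrophages of the same libraries (3963 and 758 cells). In them 220 genes were higher (1.83%) and 167 lower (1.39%). Of the 68 genes higher in interferon-responsive microglia 63 (92.6%) were also higher there, which is 28.6% of the 220. The other 5 were Cryab, Ifi207, Nampt, Ndrg1 and Ogn, of which Ogn, Cryab and Ndrg1 were not called in microglia without matrix-rich barcodes. Of the 4 lower genes 0 were shared. Both kinds of cells were picked by the same 5 interferon genes and filters, so shared higher genes of that response are no separate evidence. The part of the macrophage transcripts of members in this overlap was not tested. Without matrix-rich barcodes macrophages had 270 genes higher (2.35%) and 213 lower (1.85%), and 68 of the 71 higher genes of microglia (95.8%) were among the 270, which is 25.2% of these. Of the 5 lower genes of microglia in that setting 1 (20%) was among the 213.

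The difference of the interferon effect, microglia minus macrophages, was tested itself. It had 0 genes past the threshold with edgeR (0% of those tested in either direction), with 1012 genes at an unadjusted p under 0.05, while DESeq2 called 21 higher and 30 lower. Isg15 differed by log2 3.62 in microglia and 4.02 in macrophages (difference -0.39 ± 0.77). Cxcl10 differed by log2 2.78 in microglia and 5.24 in macrophages (difference -2.47 ± 0.65, edgeR adjusted p = 0.482), where the macrophages without interferon genes had 16.9 and 39.3 CPM. Apoe differed by 0.30 and -1.66 (difference 1.96 ± 0.25, edgeR adjusted p = 0.0958), and this difference was the 1 called (0.00871% of those tested) when matrix-rich barcodes were left out. It was 44440 and 25050 CPM in interferon-responsive microglia, against 39550 and 18800 CPM in low-ISG microglia, and 41670 and 15320 CPM in interferon macrophages, against 106500 and 44060 CPM in low-ISG macrophages.

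MHC class II genes had a positive median in microglia (log2 0.38, 0 of 9 called) and a negative one in macrophages (log2 -1.25, 0 of 9 positive, 2 lower). The libraries of members were uneven for part of this list. H2-Aa, H2-Ab1 and H2-Eb1 had 8, 11 and 9 UMIs in members of replicate 1 and 464, 598 and 614 in replicate 2, of 617211 and 972056 UMIs in all. H2-DMa, with 71 and 169 UMIs, was less uneven. The part of dendritic cell transcripts, which also differed between these libraries, was not tested. H2-DMb1, a chaperone of peptide loading, differed by log2 0.04 in microglia and -1.66 in macrophages (difference 1.71 ± 0.42, edgeR adjusted p = 0.482), so the difference was not called. The direct test therefore left no gene of this list apart at the adjusted threshold.

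**Figure D5:**
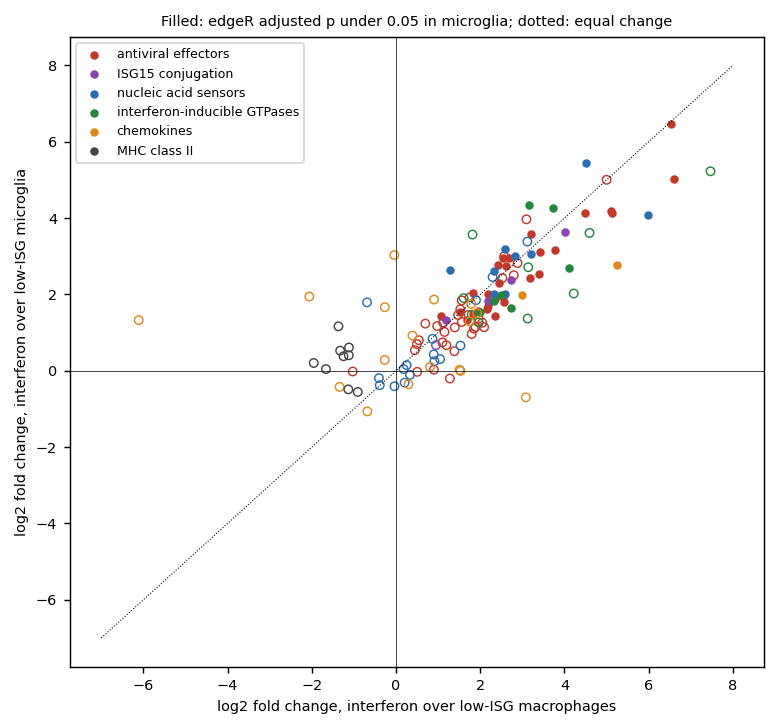
Log2 difference between interferon and low-ISG cells for genes of 6 lists, in macrophages on the horizontal axis and in microglia on the vertical axis, with filled points for genes called in microglia. Genes called in microglia lie in the upper right, positive in both cell types, and the MHC class II genes lie left of 0, with none called in microglia.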

How the data were processed

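The authors deposited 1 matrix of raw UMI counts per gene and barcode for each of the 2 libraries. Per the file headers, Cell Ranger 4 wrote them, and they hold all barcodes of the kit. Per the submitters' processing notes, Cell Ranger 4.0.0, STAR 2.5.1b and Seurat 4 were used with builds listed as GRCh38, GRCm38 and mm10, whose roles are not given. Barcodes counted as cells from 1000 UMIs and 500 genes upward, unless over 10% of their UMIs were mitochondrial. Scrublet (scanpy 1.11.5, 0.8% doublets expected per 1000 cells) marked 1426 cells of replicate 1 (9.48%) and 0 of replicate 2, which counts as a failed call, so the 501 top-scoring cells (6.33%) were taken as doublets there. Doublets stayed in, and an alternative leaves them out. Barcodes under 100 UMIs, taken as free RNA, held 4.91% and 4.40% of all UMIs.

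Raw counts were summed per library for 6 gates that share no cell: interferon, low-ISG, Tnf/Il1a and Ch25h/Cd5l microglia, and interferon and low-ISG macrophages. CPM refers to all UMIs of a sum. The 12 sums entered 1 fit in edgeR 4.0.16 under R 4.3.3 (TMM, filterByExpr, quasi-likelihood test, Benjamini-Hochberg over all 11998 tested genes, threshold 0.05), with the library as a block and 5 residual degrees of freedom. The spread thus comes from all gates. Each library gave cells to every gate, which is why the library was a block. Deviations of the replicates from their gate means correlated with r = 0.311 between interferon and low-ISG microglia, and over all pairs of gates from -0.000792 to 0.574. The fit was tested on simulated data for this comparison (11755 genes). There it recovered 36 of 50 genes raised 2-fold and 50 of 50 raised 4-fold. Of genes lowered to 0.5 and 0.25 of their level it recovered 31 of 50 and 45 of 50. It called 5 of 11555 unchanged genes. These rates hold for the spread of the simulated counts, and whether real genes share that spread was not tested. Among the called genes the standard error was 0.60 for Isg15 and 0.17 for Sall1, so the rates are not error rates of the real comparison.

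Members, gates and gene lists were chosen with earlier results of these data known. Genes were named by a fixed rule: in the main comparison, up to 12 called genes in each direction with the largest fold, the same sign in both libraries and a mean of at least 20 CPM in the higher gate, up to 4 called genes of each list, and a set always given, among them Isg15, Stat2, Irf7, Irf9, Ifnar1, Ifnar2, Ifnb1, Cxcl10, Ccl12, Ccl5, B2m, Cx3cr1, Apoe, Trem2, Spp1, Axl and Il1b. The other comparisons took the 6 largest in each direction. Genes named beyond this were chosen after their values were seen. Alternatives were DESeq2 1.42.0 and its size factors, no filter on low counts, no block, cells of 3000 to 10000 UMIs, no doublets, an interferon gate at 10 UMIs, a low-ISG gate at 0 UMIs and, for the share, a microglia gate at 30 per 10000 and thinning to 2000 UMIs. Gene positions and types come from GENCODE vM21 (GRCm38), which holds 99.62% of the 31053 gene IDs. Sums and tables were made in Python 3.11.15 with pandas 2.3.3, numpy 2.4.6 and scipy 1.17.1. A few genes of the lists and of this set are not reported here.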

Additional observations from a re-analysis of the deposited data

How the results depend on the processing

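The 30 named genes called against low-ISG microglia kept their direction under the alternatives run, where each could be tested. Genes that were not called are not covered by this, and Cd74 differed in direction between the libraries. Against low-ISG microglia the 68 higher and 4 lower genes became 199 and 16 with no filter on low counts, 161 and 10 with DESeq2, 43 and 1 with no replicate block, 21 and 0 in cells of 3000 to 10000 UMIs, and 249 and 85 in a fit of the compared gates alone. The 4 lower genes became 7 with the low-ISG gate at 0 UMIs and 2 without matrix-rich and macrophage-gene-rich barcodes. With the interferon gate at 10 UMIs 1 gene was lower, and it was not among the 4. Against Tnf/Il1a microglia the 436 higher and 60 lower genes became 847 and 140 with no filter, 784 and 108 with DESeq2, 196 and 16 in cells of 3000 to 10000 UMIs, 65 and 6 without matrix-rich barcodes, and 56 and 0 without those and macrophage-gene-rich ones. The 436 became 238 with the interferon gate at 10 UMIs, and the 60 became 37 with DESeq2 size factors, 23 with no replicate block and 94 in the fit of the compared gates alone. For the difference between microglia and macrophages, 0 in each direction became 18 and 11 with no filter, 21 and 30 with DESeq2, 3 higher without doublets, 1 lower in cells of 3000 to 10000 UMIs, 1 higher without matrix-rich barcodes and 2 higher without those and macrophage-gene-rich ones. The cause of these changes was not tested, beyond the removal of cells that each setting states.

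The share of members among microglia-gated cells, 1.13% and 1.74%, became 0.386% and 0.714% with the interferon gate at 10 UMIs, 0.773% and 1.39% without matrix-rich and macrophage-gene-rich barcodes, 0.508% and 0.433% after thinning, and 0.769% in replicate 1 with the microglia gate at 30 per 10000. Of the 30 named genes called against low-ISG microglia, 30 remained called with DESeq2, 29 with its size factors, 20 with no replicate block and 11 in cells of 3000 to 10000 UMIs. Leaving out a library leaves no residual degrees of freedom, so the counts have no value there, and the 30 genes had log2 differences from -1.80 to 4.64 in replicate 1 alone and from -1.57 to 6.33 in replicate 2 alone. Leaving out matrix-rich barcodes, leaving out macrophage-gene-rich ones as well, and the fit of the compared gates alone were chosen after seeing the data.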

Other observations

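Among the 72 called genes 16 stood in none of the lists, and those described here were chosen after their values were seen. The Ifi200 family member Ifi206 had 56.7 and 85.4 CPM in interferon-responsive microglia of replicates 1 and 2, against 5.21 and 3.99 CPM in low-ISG microglia (log2 3.91 ± 0.48, edgeR adjusted p = 0.00778). The Schlafen gene Slfn4 had 42.1 and 62.8 CPM, against 3.69 and 2.90 CPM (log2 3.86 ± 0.69, edgeR adjusted p = 0.0434), and was not called once matrix-rich and macrophage-gene-rich cells were left out. Fgl2, the gene of a fibrinogen-like protein, averaged 85.5 CPM in members and 19.9 CPM in low-ISG microglia (log2 2.06), and Nampt, the rate-limiting enzyme of NAD salvage, 104.9 and 35.3 CPM (log2 1.60). Both stayed called without those cells. Ly6a (log2 2.24) and Cryab (log2 3.17), the gene of a small heat shock protein, were called only with the matrix-rich barcodes in.

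Rsad2 and Cxcl10 were also counted together in single members. Rsad2 is a gene of the rule, so members without it had passed on the other rule genes. The shares therefore do not measure how closely these genes go together. Cxcl10 was found in 33 of 59 members with Rsad2 in replicate 1 (55.9%) and 33 of 61 in replicate 2 (54.1%), against 10 of 29 (34.5%) and 17 of 39 (43.6%) of the members without it. Without the matrix-rich barcodes, which held no Rsad2, the shares of members without Rsad2 were 42.9% and 47.2%. With the rule gene Ifit1, Cxcl10 was found in 55.7% and 54.8% of all members, against 33.3% and 42.1% without it. With Isg15, which is outside the rule, the shares were 51.4% and 54.2%, against 38.9% and 29.4%. The part of depth in these shares was not tested.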
